A study of Mus musculus with 16 samples.

Results

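The 5S ribosomal RNA is the RNA of the large ribosomal subunit that RNA polymerase III makes. Its genes lie in a tandem array on mouse chromosome 8, between Gas8, a gene of the axonemal dynein regulatory complex, and Rhou, which encodes a small GTPase. This account follows the peaks called there, chr8:123538487-123629382 of mouse build mm10, in 16 ATAC-seq libraries of haematopoietic stem cells (HSCs). ATAC-seq marks open DNA by transposase insertion, and each library was deposited as its own list of peaks. A peak belongs to the stretch if it overlaps it by at least 1 bp, and 223 of the 386636 peaks of all lists on standard chromosomes do. The stretch is 90.896 kb long and was chosen by the positions of the called peaks themselves, so its bounds are readings too. Its first base is the start of the first peak, at 123538487 in young pre 3, and its last base the end of the last peak, at 123629382 in young pre 1. That peaks lie there is therefore how the stretch was chosen, and their number, spacing, width and peak score are given as description. The exact tests of number, covered length and width below use these same peaks. Their p-values are therefore description too and give no independent support for a difference. No other peak lay between the end of Gas8 and 1 kb before Rhou.

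There were 4 libraries in each of 4 groups, each of 10000 sorted HSCs, labelled male. Young donors were B6 mice of 8 to 12 weeks, pooled 3 to 4 to a replicate, and old donors were single B6 mice of 24 months. HSCs were taken before transplantation (pre), and 1000 of them were given, with 300000 Sca-1 depleted BJ helper marrow cells, to each replicate's 5 lethally irradiated young BJ recipients. HSCs for the post libraries came from the pooled marrow of these recipients 3 months later, so pre and post libraries of the same age and number share their donors. No label names a donor marker in the post sort, so HSCs of recipients or helpers cannot be told apart from donor HSCs there. All pre libraries were transposed on days 1 to 3 and all post libraries on days 4 to 6, so stage and day cannot be told apart.

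The lists held 5687 to 32530 peaks, fewest in old pre 4 (5687), young pre 4 (9614) and old post 4 (14008), and the reads behind them are unknown. Within 1 kb of a gene end, the HSC genes Kit, Mecom and Meis1 had a peak in all 16 libraries, and Procr and Hlf in 13 each, whereas Ly6a and Slamf1 had none. Among genes listed for other cell types, the T-cell genes Cd3e and Cd3g, Ly6g, Csf1r and Cdh5 had none, Cd79a had a peak in 16 libraries, Col1a1 in 14, Hbb-bt in 10, Pecam1 in 9 and Itgam in 2.

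RNA polymerase III reads the 5S gene through a control region inside the gene itself. There TFIIIA binds, then TFIIIC and TFIIIB follow and recruit the polymerase. The 5S transcript leaves with the ribosomal proteins RPL5 and RPL11, a particle that is also known for restraining MDM2 when ribosome assembly fails. The copies of the array are nearly alike, so a read from a copy may match others equally well. How such reads were placed is not given in the sources used here, and a peak at a record means a call at that place of the assembly. The number of 5S copies in these mice was not measured.

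The RefSeq table of GRCm38 lists 51 5S records in the stretch, 48 of them as rRNA and 3 as pseudogenes (n-R5s127, Rn5s-ps1 and Gm23647). They are 109 to 121 bp long, and neighbouring records start 1665 to 1727 bp apart, with a median of 1698 bp, here called a unit. The table of promoter sequences used here holds 0 of these records, so none of their sequence is shown. It holds the starts of the flanking genes, which bound the stretch and were called in very different numbers of libraries. They run from 250 bases before to 50 after the start, on the plus strand of GRCm38.p6, and capitals mark each CG.
Gas8, chr8:123518585-123518884: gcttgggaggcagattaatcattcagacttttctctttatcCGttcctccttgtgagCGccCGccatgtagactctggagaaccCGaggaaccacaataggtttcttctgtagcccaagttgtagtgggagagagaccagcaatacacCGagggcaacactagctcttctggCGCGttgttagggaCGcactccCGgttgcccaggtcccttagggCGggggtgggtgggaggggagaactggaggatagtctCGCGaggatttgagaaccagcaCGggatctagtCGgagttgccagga
Rhou, chr8:123653679-123653978: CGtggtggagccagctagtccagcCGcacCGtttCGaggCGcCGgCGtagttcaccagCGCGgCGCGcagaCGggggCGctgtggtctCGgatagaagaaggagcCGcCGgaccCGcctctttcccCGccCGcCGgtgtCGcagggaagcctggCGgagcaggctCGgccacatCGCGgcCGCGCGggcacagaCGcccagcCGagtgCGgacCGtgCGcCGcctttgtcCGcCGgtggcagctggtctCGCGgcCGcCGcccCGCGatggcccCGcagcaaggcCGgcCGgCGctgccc
The Gas8 sequence holds 14 CG, as many or more of which are found in 36.3% of the 32851 promoter sequences of that table, and the Rhou sequence 46, reached by 1.65% (CG reads alike on both strands). A peak at the Gas8 start was called in 15 of 16 libraries, the exception being old pre 4. A peak at the Rhou start was called in 6, and its column 7 was 202 to 226, just above the smallest value in the lists. Column 7 is the authors' score per peak, an area under a curve of significance along the peak, which is not scaled between libraries and starts at about 200 in every list.

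The number of peaks differed widely between libraries. Young pre 1 to 4 had 31, 35, 17 and 1 peaks in the stretch, and old pre 1 to 4 had 11, 19, 8 and 0. Young post 1 to 4 had 19, 15, 15 and 16, and old post 1 to 4 had 9, 13, 14 and 0. Young pre 1 and 2 stood above every other library, and the 3 shortest lists, old pre 4, young pre 4 and old post 4, held 0, 1 and 0. In those same 3 lists the denser block of the large histone gene cluster on chromosome 13 (31 genes, 0.404 Mb) held 18, 21 and 25 peaks, against 24 to 29 in the other 13. These lists thus still held most of the histone calls while the array had 0 or 1. Histone peaks had median percentiles of score of 69.8 to 96.1 per library within their lists, against 29.1 over all of the array's peaks. With lists cut to their 5687 highest-scoring peaks, the length of old pre 4's list, every library but young pre 2 had 0 peaks in the array. How many histone peaks such cut lists keep was not tested. Shares of each list and shortened lists are compared between the groups below. Whether list length accounts for the low numbers in the 3 shortest lists was not tested separately.

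**Figure D1:**
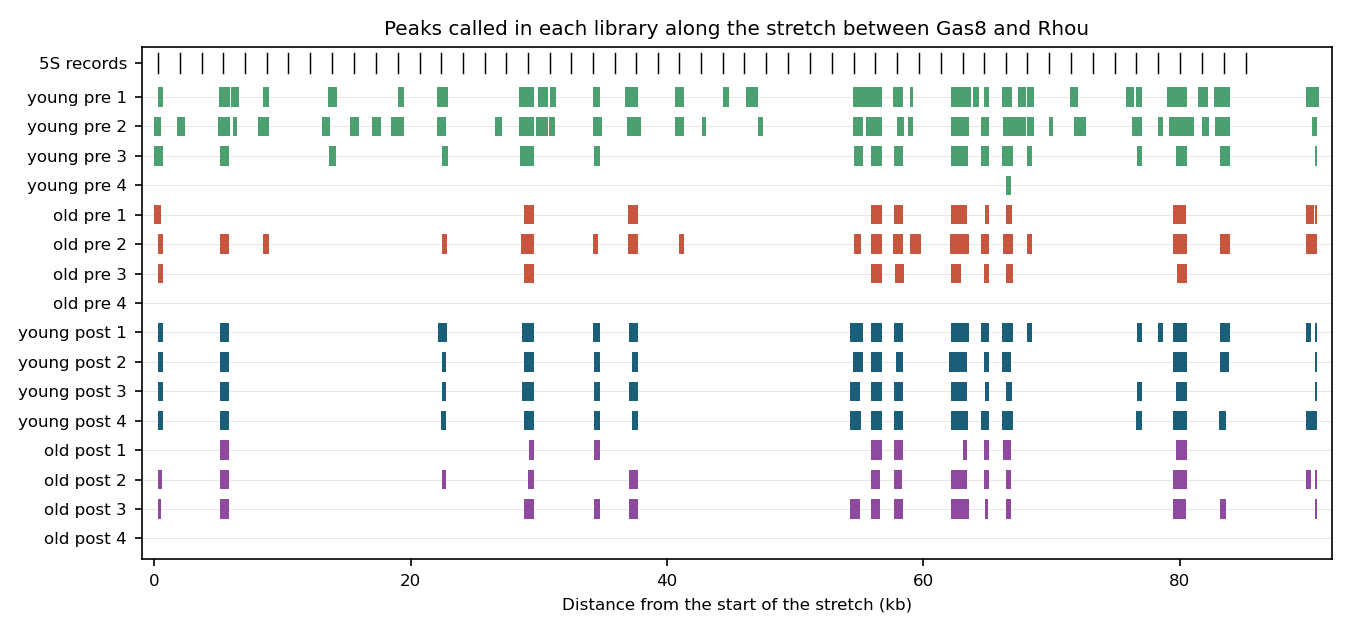
Peaks of each library (bars, to scale) along the stretch, in kb from its start, with the 51 annotated 5S records as ticks on top. The same few records carry bars in most libraries, young pre 1 and 2 carry many more, and old pre 4 and old post 4 carry none.

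Before transplantation, the old and young groups overlapped. The mean was 9.50 ± 7.85 peaks (SD, n = 4) in old and 21.0 ± 15.4 in young, a difference of -11.5 (exact permutation test, two-sided, p = 0.257, adjusted p = 0.457 over 16 tests). Without young pre 1 and young pre 2 the difference was 0.50 peaks, so its direction rests on these libraries. Every young pre library was above every old one in 0.0169% of 11830 tiles of the stretch's length with a pre peak, and the reverse in 0%, while in the stretch the ages overlapped. Per 10000 peaks of the list, young pre 1 to 4 held 10.95, 15.2, 7.96 and 1.04 peaks in the stretch, and old pre 1 to 4 held 4.03, 6.23, 4.62 and 0. Every young pre library but the fourth thus gave the array a larger share of its list than any old one did, and the means, 8.79 ± 5.95 and 3.72 ± 2.65, differed by -5.07 (exact p = 0.171, adjusted p = 0.457). Shares did not overlap, young higher, in 0.406% of the tiles, and the reverse held in 0.296%. Without young pre 4 the difference was -7.65 (exact p = 0.0286, the smallest that 4 against 3 can give, adjusted p = 0.0625). Without young pre 1 and young pre 2 it was -0.78. On day 2, the only pre day with both ages, the shares were 10.95, 15.2 and 7.96 for young pre 1 to 3, against 4.62 and 0 for old pre 3 and 4. They differed by -9.06 (exact p = 0.100, the smallest that 2 against 3 can give, adjusted p = 0.236).

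After transplantation the groups did not overlap in the full lists, though they did at equal list length. Young post libraries had 15 to 19 peaks and old post libraries 0 to 14, with means of 16.2 ± 1.89 and 9 ± 6.38, a difference of -7.25 (exact p = 0.0286, the smallest that 4 against 4 can give, adjusted p = 0.114). Without old post 4 it was -4.25 peaks (exact p = 0.0286, adjusted p = 0.152). Among 12021 tiles of the stretch's length with a post peak, 3.6% also had every young post library above every old one, and 0.0166% the reverse. Per 10000 peaks the values were 5.84, 4.87, 4.78 and 5.00 in young post 1 to 4, against 3.86, 4.56, 4.52 and 0 for the old post libraries. These too did not overlap (difference -1.89, exact p = 0.0286, adjusted p = 0.114), as in 2.4% of the tiles, with the reverse in 1.98%. Without old post 4 the difference per 10000 peaks was -0.81 (exact p = 0.0571). On days 5 and 6, the post days with both ages, it was -2.86, and -9.25 peaks in number (exact p = 0.0667 for both, the smallest that 2 against 4 can give). It was 0 with lists shortened to the length of the shortest, since no post library then kept a peak in the stretch. None of these differences passed the threshold of adjusted p 0.05.

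**Figure D2:**
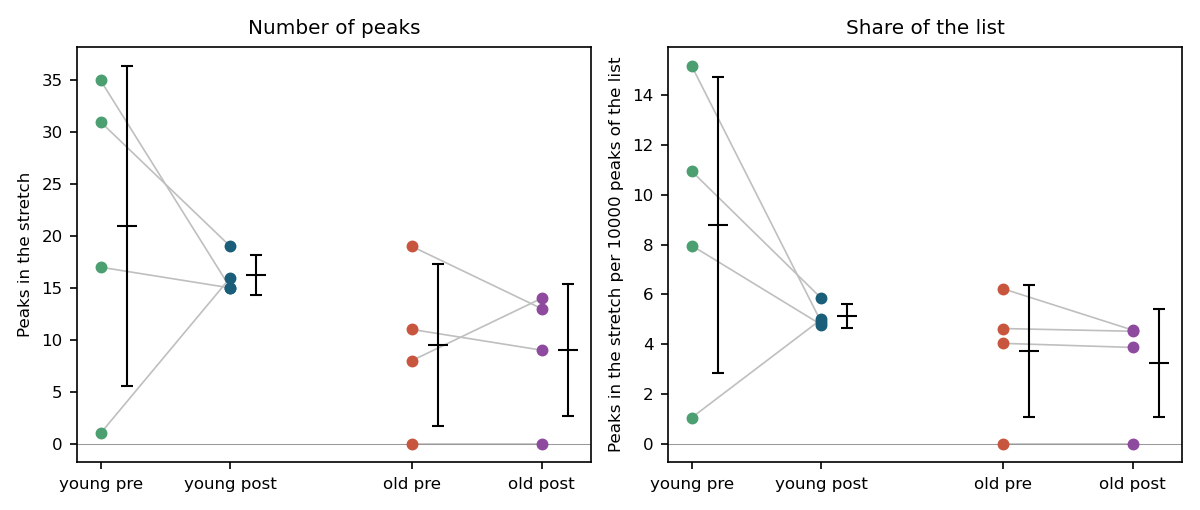
Peaks in the stretch (left) and the same per 10000 peaks of the library's list (right). Points are libraries, grey lines join the pre and post library of a donor, and the bars beside them are the mean and SD of 4 libraries. Young post libraries sit close together at 15 to 19 peaks, while young pre libraries spread from 1 to 35.

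From pre to post, the number fell in young donors 1 to 3 by 12, 20 and 2 peaks and rose by 15 in donor 4. In old donors 1 to 4 it changed by -2, -6, 6 and 0. The mean change over 8 donors was -2.62 peaks (exact sign flips, p = 0.516, adjusted p = 0.620) and -2.07 per 10000 peaks (exact p = 0.203, adjusted p = 0.457). Without young donor 2 these were -0.14 and -0.90, and without young donor 4 they were -5.14 and -2.94, the latter with an exact p of 0.0312 and an adjusted p of 0.125. The change did not differ between the ages beyond the spread (old minus young 4.25 peaks, exact p = 0.657, adjusted p = 0.701), and without young donor 2 that difference was -0.83. Young post libraries varied less than young pre ones, with an SD of 1.89 against 15.4 peaks, a comparison for which no test was made.

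Each list was also shortened to its 14008 peaks of highest column 7, the length of old post 4's list, while young pre 4 and old pre 4, already shorter, kept their 9614 and 5687. Young pre 1 to 4 then kept 7, 18, 8 and 1 peaks in the stretch, old pre 1 to 4 kept 1, 4, 6 and 0, young post 1 to 4 kept 4, 1, 0 and 2, and old post 1 to 4 kept 3, 1, 1 and 0. Young pre 2 was again the highest. The 8 post lists were then of equal length, the ages overlapped, and they differed by -0.50 peaks and -0.36 per 10000 (exact p = 0.800 for both). Shortened to the 5687 peaks of the shortest list, it alone kept any, 4 peaks with a median width of 1576 bp.

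The peaks covered 24.2, 26.9, 11.8 and 0.393 kb of the stretch in young pre 1 to 4, and 7.43, 13.6, 5.18 and 0 kb in old pre 1 to 4. In young post 1 to 4 they covered 13.02, 9.72, 9.32 and 11.3 kb. Old post 1 to 4 had 5.32, 7.48, 8.68 and 0 kb covered. At most 29.6% of the stretch was therefore called, in young pre 2. Covered length differed by -9.27 kb between old and young before transplantation (exact p = 0.257, adjusted p = 0.457) and by -5.46 kb after it (exact p = 0.0286, adjusted p = 0.114). Without young pre 1 and young pre 2 the first was 0.47 kb.

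Median widths of most libraries lay close together. The 223 peaks had a median width of 679 bp, from 178 bp in old pre 1 to 2259 bp in young pre 1, and 31 were wider than 1000 bp. Of these 31, 15 were in young pre, most of them in young pre 1 and 2, 8 in young post, 5 in old pre and 3 in old post. The widest peak (chr8:123593026-123595284, young pre 1) covered the records Gm26391 and n-R5s133, the only peak to overlap more than 1 record. The median width per library was 696, 695, 704 and 393 bp in young pre 1 to 4, the last from 1 peak. Old pre 1 to 3 had medians of 647, 755 and 733 bp. After transplantation young 1 to 4 had 690, 684, 676 and 691 bp, against 626, 530 and 654 bp for old 1 to 3. Median widths were thus smaller in old post than in young post with no overlap between libraries (difference -81.9 bp, n = 3 and 4, exact p = 0.0286, adjusted p = 0.114). They take in 3 old post and 5 young post peaks beyond the last 5S record, and medians without these were not compared. The median width also separated the same libraries, young wider, in 13.2% of 9774 tiles with a peak in all 7, and old wider in 1.9%. The difference was -45.2 bp without old post 2 (exact p = 0.0667) and -11.3 bp among peaks with column 7 of at least 500 (exact p = 0.771). Column 7 is an area along the peak, so the latter cut keeps wider peaks, with medians of 839 to 922 bp in these libraries. The donor old 4 had no peak in either library and drops out of every comparison of widths. In the whole lists of these 7 libraries the median width was 684 to 708 bp in young post 1 to 4 and 670 to 687 bp in old post 1 to 3.

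Most peaks sat on 5S records. Of the 223, 194 (87.0%) overlapped a record, and 166 summits (74.4%) lay within the 200 bp that begin at a record's first base, a window that makes up 11.8% of a unit. These 166 came from 28 records that recur over 14 libraries, so they are not separate positions. The share of randomly placed peaks of these widths that would overlap a record was not computed. Distances are counted from the record's lower coordinate, and the table gives no strand. Their median was 128 bp, with quartiles of 73 and 147 bp, so the middle of the summits ran from inside the record to just past its end. Within those 200 bp lay 57 of 84 summits in young pre, 29 of 38 in old pre, 53 of 65 in young post and 27 of 36 in old post. A further 18 summits in 11 libraries lay before a record, over 200 and up to 300 bp from it, 9 of them at n-R5s103 and 5 at n-R5s133. Of 25 summits elsewhere within the array, 16 were in young pre.

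**Figure D3:**
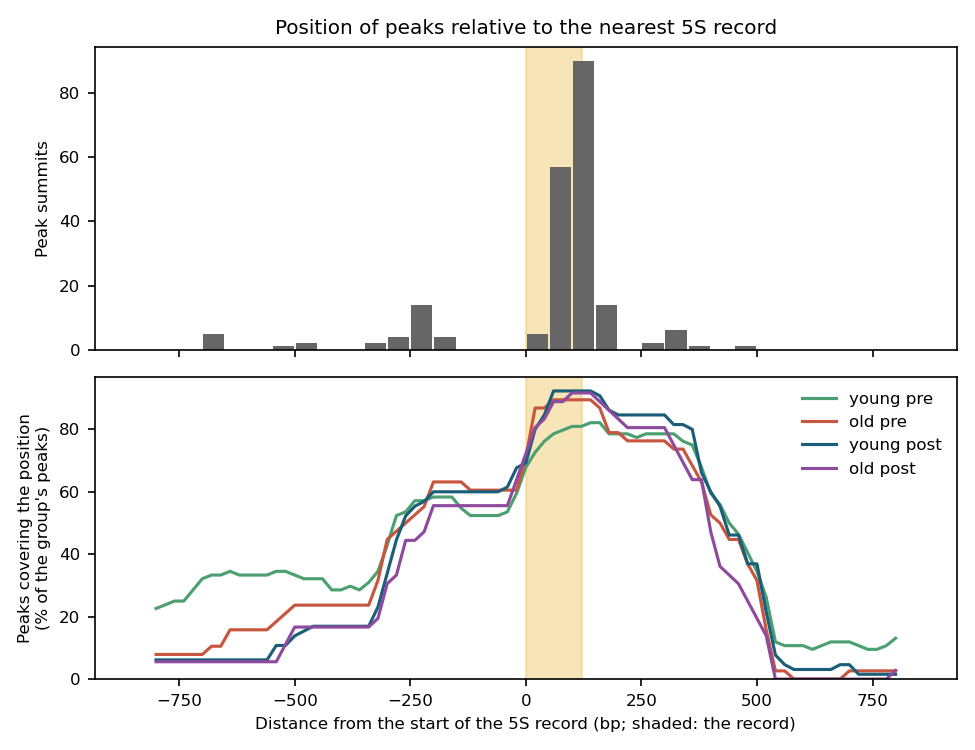
Top, number of peak summits by distance in bp from the start of the nearest 5S record (shaded). Bottom, percent of each group's peaks that cover each position. Most summits fall at 50 to 200 bp, and all 4 groups cover that place in most of their peaks.

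At several records the summit lay within a short range in every library that had a peak there, and at others it did not. At n-R5s139 it was 68 to 84 bp from the start in all 14 libraries with a peak there, at n-R5s113 125 to 147 bp in 9, at n-R5s100 82 to 105 bp in 12, and at n-R5s122 68 to 99 bp in 10. The summits at n-R5s139 thus lay inside its 121 bp, and those at n-R5s113 all past the record's end. At other often called records they spread further, from -282 to 302 bp at n-R5s133 (13 libraries) and from 147 to 358 bp at n-R5s120 (10 libraries). At n-R5s103 the median of -220 bp was before the record, and summits ran from -235 to -194 bp outside young pre 2. In young pre 2 they lay at 100 and 861 bp, the latter in a peak that overlapped no record.

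Spacing followed the repeat in part. Of 209 distances between neighbouring summits of a library, 113 (54.1%) were within 100 bp of a whole number of units, where 11.8% of the possible distances are. They comprised 49 of 1 unit, 19 of 2 and 45 of 3 or more, and 12 distances were under 1000 bp. By library, whole units made up 10 of 30 distances in young pre 1, 12 of 34 in young pre 2 and 13 of 16 in young pre 3. The same records recur between libraries, so the 209 distances are not separate observations. The median distance was 2672 bp in young pre 1 and 1838 bp in young pre 2, the libraries with the most peaks. It was 4922 bp in young pre 3, 3400 to 6598 bp in old pre 1 to 3, 3314 to 4942 bp in young post and 4787 to 5944 bp in old post 1 to 3. In most libraries a call thus came every 2 to 4 units, with long gaps between.

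The calls were uneven along the array. A record was counted as called in a library that had a peak within 300 bp of it. Of the 51 records, 11 were called in 10 or more libraries, 5 in 4 to 9, 8 in 2 to 3, 9 in 1 and 18 in none. n-R5s139 was called in 14 libraries, all that had any peak, and was the only record called in young pre 4. Next, with 13 libraries each, came n-R5s117, n-R5s133, n-R5s134, Rn5s-ps1, n-R5s138 and Gm22291. Those 7 were each called in young pre 1 to 3, old pre 1 to 3, all 4 young post libraries and old post 1 to 3. Of these 7, 5 lie between 123594752 and 123605066, from n-R5s133 to n-R5s139. In the same stretch Rn5s was called in 1 library and n-R5s136 in none. Records without a call were spread over the array, and the longest runs of them were n-R5s114 to Gm25018 and n-R5s129 to n-R5s131, of 3 records each. Rn5s-ps1, called in 13 libraries, is annotated as a pseudogene, so the most often called records were not all annotated as functional genes.

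**Figure D4:**
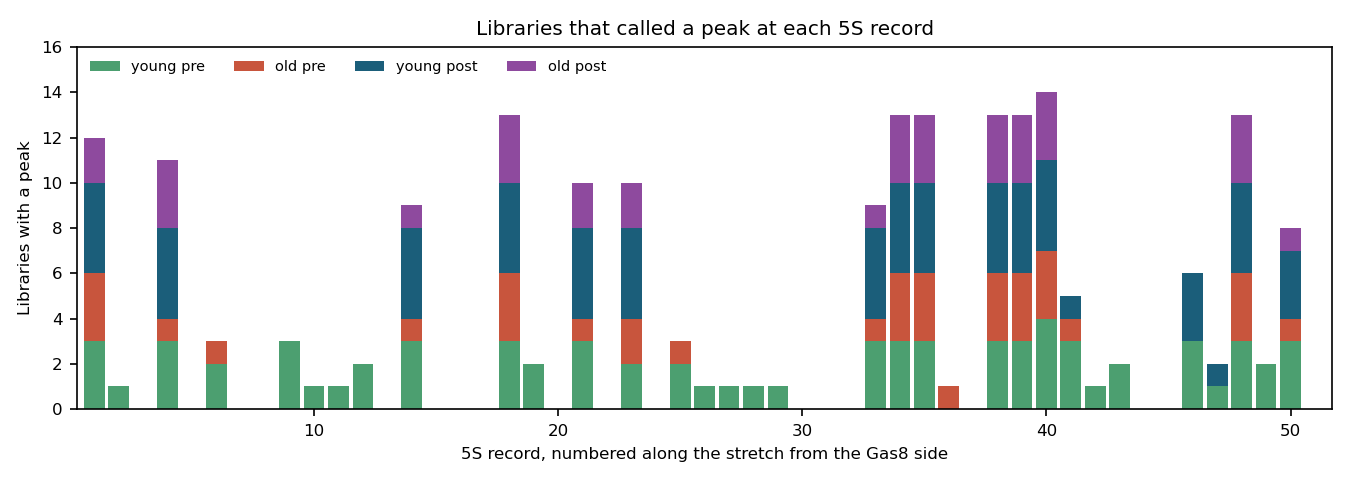
Number of libraries, stacked by group, with a peak within 300 bp of each of the 51 5S records, numbered from the Gas8 side. The 11 records called in 10 or more libraries are shared by all 4 groups, and most short bars are young pre alone.

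Libraries with fewer calls mostly had a subset of the records called in young pre 2, which had 30. All records of young pre 3 (16), old pre 1 (9), old pre 3 (8), young post 1 to 4 (17, 14, 14 and 15) and old post 1 to 3 (9, 11 and 13) were among these 30. Young pre 1 shared 23 of its 25, which is 76.7% of the set of young pre 2, and old pre 2 shared 17 of 18. At least 1 call was made at 32 records in young pre, 18 in old pre, 17 in young post and 14 in old post. The 32 of young pre rest mostly on young pre 1 and 2, with 25 and 30 records, against 16 and 1 in young pre 3 and 4. Of the 33 records ever called, 12 were called in young pre 1 or 2 and in no other library. The matching share over all regions of the series is not given here. Both libraries were transposed on day 2, as were young pre 3, old pre 3 and old pre 4, which had 17, 8 and 0 peaks. Whether a further condition of these 2 libraries moved with their calls was not tested.

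For tests of single positions, peaks of all libraries that overlap were merged into regions. The stretch held 37, of which 27 were called in 2 or more libraries, among 33773 such regions genome-wide. Each was compared by an exact conditional test that weighs a library by its odds of a call, adjusted over all regions tested. Before transplantation, 12 regions of the stretch could be tested between ages and 0 passed, as did 0% of 9407 genome-wide, while 2 had an unadjusted p under 0.05 against 2.29% genome-wide. These were the regions at n-R5s108 and Gm25212, each called in 3 of 4 young pre and 0 of 4 old pre libraries (exact p = 0.0034, adjusted p = 0.360). Both met the rule for testing through young pre calls alone, and n-R5s108 was called in no other group. Next came n-R5s103 and 4 further regions tied with it, at 3 of 4 young and 1 of 4 old (exact p = 0.0665, adjusted p = 0.999). After transplantation 3 regions were testable and 0 passed, against 0.465% genome-wide, and 0 had an unadjusted p under 0.05, against 1.84%. The smallest exact p was 0.471, at Gm25212, called in 3 of 4 young post and 0 of 4 old post libraries. n-R5s113 (4 of 4 young, 1 of 4 old) and n-R5s149 (3 of 4 and 1 of 4) both had exact p = 1. No region of the stretch was called in all 4 libraries of an age and in 0 of the other at either stage, against 1.52% of all regions for young post alone.

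With both stages pooled, 0 of 9 testable regions passed between ages (0.27% genome-wide), and 2 had an unadjusted p under 0.05 (4.56% genome-wide). This test takes no account of shared donors between stages. Gm25212 (region chr8:123614281-123615531) was called in 6 of 8 young and 0 of 8 old libraries (exact p = 0.0031, adjusted p = 0.246), and n-R5s113 (chr8:123560540-123561375) in 7 of 8 young and 2 of 8 old (exact p = 0.0080, adjusted p = 0.395). Next was n-R5s120, with an exact p of 0.0512, called in 7 of 8 and 3 of 8. The 6 libraries with Gm25212 were young pre 1 to 3 and young post 1, 3 and 4. Leaving out each library in turn gave a smallest adjusted p in the stretch of 0.0477 to 0.954. The lowest was Gm25212 without young post 2, the only young post library that lacked it (6 of 7 young and 0 of 8 old), and the highest came without young pre 2. With lists of at most 14008 peaks it was 0.677.

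Between stages, 0 of 9 regions passed (0.402% genome-wide), and 2 had an unadjusted p under 0.05 (5.62% genome-wide). Gm22109 (chr8:123606595-123607139) was called in 4 of 8 pre libraries, young pre 1 to 3 and old pre 2, and in 1 of 8 post libraries, young post 1 (exact p = 4.7e-04, adjusted p = 0.0815). This test too takes the 8 and 8 libraries as independent. Leaving out each library in turn gave a smallest adjusted p in the stretch of 0.0113 to 0.450. It was under 0.05, at Gm22109, without old pre 1 (adjusted p = 0.0113) and without young post 1, the only post library with the call (adjusted p = 0.0414). It was 0.450 without young pre 2, 0.419 without young pre 3 and 0.729 with regions merged within 100 bp, and Fisher's exact test without weights gave no p under 0.282. n-R5s149 followed, at 4 of 8 in each (exact p = 0.0448, adjusted p = 0.710), with post calls minus those that the library odds give at -1.53, and then n-R5s100 at 6 of 8 in each (exact p = 0.0999, adjusted p = 0.954). The most widely called regions, at n-R5s139 (14 libraries), n-R5s117 and Gm26391 with n-R5s133 (13 each), lay outside the range of calls that was tested. No region was called in all libraries of a stage and in 0 of the other, against 0.00296% of all regions for post alone. At the other end, regions at n-R5s101, n-R5s109 and n-R5s110 were each called in 1 library.

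Within its own list, a peak of the array was usually a low-scoring one. Of the 223, 52 (23.3%) had a column 7 above the median of their list, against 79.9% of the 394 peaks in the histone block. The median rank of the array's peaks was at the 24.4th, 41.6th and 31.2nd percentile of the list in young pre 1 to 3, at the 28.3rd to 34.7th in old pre 1 to 3, at the 20.4th to 36.3rd in young post and at the 18.7th to 26.0th in old post 1 to 3. In all, 87 peaks scored under 300, near the floor. The highest score was 1654, at Gm22291 in young pre 2 (chr8:123617686-123619583), at the 88.3rd percentile of that list. Of the 9 peaks that reached 1000, 4 were in young pre 1, 4 in young pre 2 and 1 in young post 4.

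**Figure D5:**
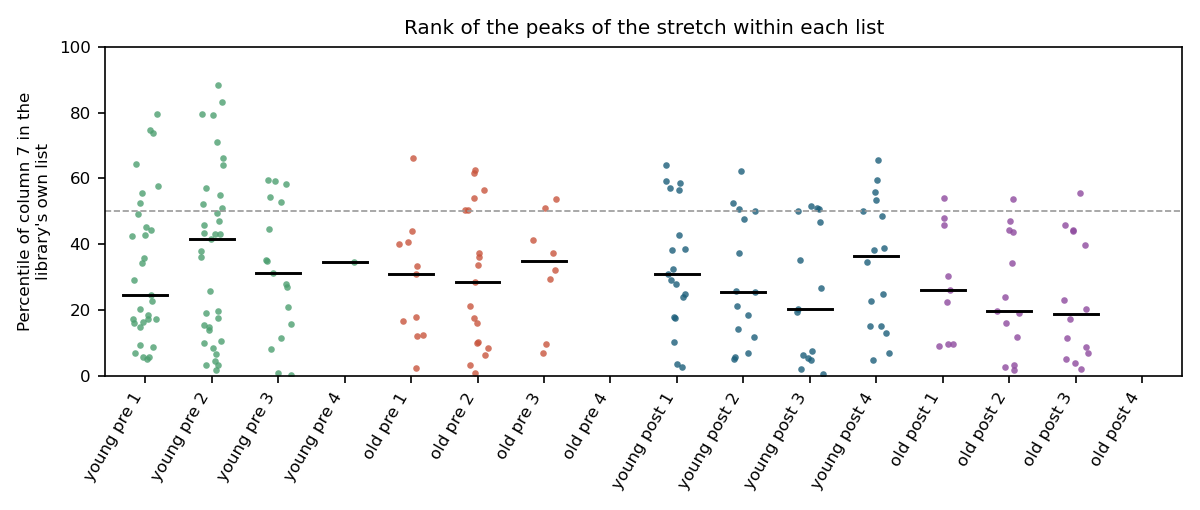
Percentile of column 7 of each peak of the stretch within the list of its own library (100 is the highest score), with the median as a black line and the middle of the list dashed. Most points lie below 50 in every library, and young pre 1 and 2 have the points above 70.

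The same few records scored highest in most libraries. Gm22291 had the highest column 7 among the array's peaks in 9 of 14 libraries, n-R5s139 in 3, and Rn5s-ps1 and n-R5s133 in 1 each. These 4 took 39 of the 40 places in the top 3 of each library, and n-R5s117 the other. Gm22291 scored 1371, 1654 and 719 in young pre 1 to 3. Its scores were 923, 857 and 405 for old pre 1 to 3. It scored 975, 924, 651 and 1038 in the young post libraries in order and 571, 701 and 734 in old post 1 to 3, on scales that differ between lists. The 11 records called in 10 or more libraries also had a higher median score than the rest in every library with peaks at both. The medians were 690 against 286 in young pre 1, 744 against 282 in young pre 2 and 436 against 234 in old pre 2. A peak is listed only above the score floor, so records called in many libraries are those that pass it often. The higher scores of the 11 are thus in part a result of how they were picked, and no test was made.

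Beyond the last annotated record, Gm23647, 14 peaks in 11 libraries lay in a region without a 5S record (chr8:123628341-123629382). They began 4.60 kb past that record, were 178 to 1037 bp wide with a median of 280 bp, and scored 203 to 836. The region was called in 3 young pre, 2 old pre, 4 young post and 2 old post libraries.

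The table lists 28 further 5S records on standard chromosomes outside the array, 11 as rRNA and 17 as pseudogenes. A peak within 300 bp was called at 1 of these, the pseudogene n-R5s41 on chromosome 15 (82342653 to 82342771), in 11 libraries, and the nearest protein-coding gene was Pheta2.

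All 29 genes fixed for 5S transcription and the 5S particle had a region within 1 kb of a gene end, and 15 of them were called in all 16 libraries. Gtf3a, which encodes TFIIIA, was called in 3 young pre, 3 old pre, 4 young post and 3 old post libraries. Of the TFIIIC genes, Gtf3c1, Gtf3c2 and Gtf3c6 were called in 16 and Gtf3c3 in 10. The TFIIIB genes Brf1 and Tbp and the polymerase III repressor gene Maf1 were called in 16, Bdp1 in 13, and Polr3a, the largest subunit of the polymerase, in 12. Rpl5 and Rpl11 were called in 15 each, and Rpf2, an assembly factor of the 5S particle, in 10. Of the 31 regions, 4 could be tested before transplantation, with both stages pooled and between stages, and 0 after transplantation. None passed in either direction, 0 had an unadjusted p under 0.05, and the smallest adjusted p was 1. These genes were called in 15 to 29 of 29 per library, so the libraries without a peak in the array still called many of them.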

How the data were processed

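Peaks came from 16 deposited narrowPeak lists without a header, called separately per library. Per the submitters' processing notes, Genrich, Trim Galore, cutadapt, FastQC, MultiQC, ChIPseeker, featureCounts and DESeq2 were used on build mm10. Aligner, settings, versions and how reads that match several places were handled: not given in the sources used here. Columns 5 and 7 of the deposited lists are scores, column 5 being 1000 times column 7 per base, up to 1000 (checked on 386636 peaks). Columns 8 and 9 of the deposited lists are -log10 p and -log10 q at the summit. No value is scaled between libraries. The 393 peaks on unplaced scaffolds were left out.

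Members and lists were chosen with earlier results of these data known. For 4 measures, namely number, number per 10000 peaks, covered length and median width, 4 contrasts were tested by exact permutation or, for post against pre, sign flips within donors, whose pairing the series design states. Their 16 p-values were adjusted together by the Benjamini-Hochberg method. They measure the spread between libraries of separate donors or pools. Regions were tested if called in 4 to 12 of 16 or 3 to 5 of 8 libraries, with library odds estimated by conditional maximum likelihood, a test that was tested on simulated data. The text names the 3 regions called in the most and fewest libraries, the 3 with the smallest p per comparison and the widest and highest-scoring peaks. Other records were named after their values were seen. Alternatives changed the score threshold, the overlap, the list length, the joining of peaks, the libraries and the pairing. Python 3.11.15, numpy 2.4.6, pandas 2.3.3, scipy 1.17.1 and matplotlib 3.10.9 were used. The depth in reads is unknown, so values carry no counting interval. Some genes of the marker lists are not reported here.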

Additional observations from a re-analysis of the deposited data

Results flagged for a closer look

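The share of peaks in the stretch of old post 4, 0 per 10000, stood apart from the other 3 old post libraries, which had 3.86 to 4.56. The median peak width of young pre 4, 393 bp, stood apart from the other 3 young pre libraries, at 695 to 704 bp, and rests on 1 peak. Both are among the 3 shortest lists. A gap of this size arises by chance in about 1 of 20 groups of 4.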

How the results depend on the processing

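None of the 16 tests of the stretch as a whole passed, here or under any alternative run, and most kept their direction. Leaving out each library or donor in turn gave ranges for old against young of -18.2 to -6.83 peaks before and -8.92 to -4.25 after transplantation, and -0.83 to 10.8 for the change with transplantation. Between stages the range was -5.14 to -0.14 peaks and -2.94 to -0.90 per 10000. For old against young post it was -107 to -45.2 bp in median width. For the change in covered length the range was -0.26 to 9.09 kb, and for median width between stages -61.7 to 25.5 bp. Without young pre 1 and 2 together, chosen after seeing the data, old minus young before transplantation was 0.50 peaks and 0.47 kb, post minus pre 1.83 peaks and 0.62 kb, and the difference in change -7.00 peaks, -0.87 per 10000 peaks and -5.40 kb. With column 7 of at least 500, a cut that keeps wider peaks, the width difference was -118 bp before transplantation, -11.3 bp after it and 106 bp for the change. With lists shortened to the third shortest, width between stages differed by 157 bp. Shortened to the shortest, old minus young after transplantation was 0 peaks, 0 per 10000 and 0 kb, and no width could be compared there. The cause of these shifts was not tested beyond the libraries and peaks removed. Of single regions, 0 to 1 passed when a library was left out, both between ages over both stages and between stages. With lists shortened to the third shortest, no region of the stretch could be tested after transplantation. With the replicate block, pairing old and young of the same number, the differences were again -11.5 and -7.25 peaks (exact p = 0.125 each, the smallest that 4 pairs can give). No replicate block between stages gave -2.62 peaks (exact p = 0.623), and it changed no call.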

Other observations

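Many edges of the array's peaks recurred at the same base in different libraries. Of the 223 ends, 30 (13.5%) were found at that base in 5 or more libraries, against 2.72% of all 386636 peaks and 0 of 394 in the histone block on chromosome 13. Of the starts, 23 (10.3%) were shared by 5 or more libraries, against 2.96% of all peaks and 2.54% in the histone block. At n-R5s117 the end 123568135 was called in 7 libraries, and the ends 123576234 at n-R5s122, 123596932 at n-R5s134 and 123615531 at Gm25212 in 6 each. An end shared with at least 1 other library was found for 42.6% of the array's peaks and 30.5% of all peaks. In young pre 1 it was 22.6% of the array's peaks and 30.2% of the whole list, and in young pre 2 it was 20% and 15.6%. These edges were looked for after the positions had been seen, and no test was made.

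In young pre 1, young pre 2 and old pre 2, no tile of the same length, laid end to end over the genome, held as many peaks as the 31, 35 and 19 of the array. In old pre 1, by contrast, 70 of 10980 tiles with a peak held at least its 11, and in old post 1, 136 of 9961 held at least its 9. No test was made of these numbers, which come from the values that singled out the array.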
